A study of Mus musculus with 2 samples.

Results

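Bins of the mouse genome that lost accessibility in aged hematopoietic stem cells (HSCs) were defined on the 19 autosomes, which were divided into 4925502 non-overlapping bins of 500 bp. A DNA fragment was counted in the bin of its midpoint, and 143703 bins held 100 or more fragments over the young and the aged library and were tested. Of these, 2755 bins had an aged over young share of fragments of 0.6 or less (with a pseudocount of 1 fragment), and they are called lost bins below. This is 1.92% of the tested bins. The opposite limit, a ratio of 1.67 or more, was met by 6233 bins (4.34%), called gained bins and used only for comparison.

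The study asked how chromatin accessibility of HSCs changes with age. Single-cell ATAC-seq, in which a transposase cuts accessible DNA of single nuclei and the fragments carry a barcode of their nucleus, was made from HSCs of C57BL/6 mice aged 10 weeks (young) and 20 months (aged). Both groups were sorted from bone marrow by the same gate, negative for the IL-7 receptor (IL-7- in the labels), Lin (lineage antigens), CD34, CD48 and Flt3 and positive for Sca-1, c-kit and CD150. The mice were female per the methods, no treatment or transgene was involved, and the sources used here do not state how many mice were pooled.

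HSCs sit at the top of blood formation and give rise to all blood lineages. Most regulatory DNA of such a cell lies in enhancers away from gene starts, where transcription factors keep nucleosomes off short stretches of DNA. PU.1, an ETS-family factor needed for myeloid and lymphoid cells, RUNX1 and MEIS1 are known factors of HSC enhancers, while CTCF marks the boundaries of chromatin loops. With age, HSCs are known to grow in number, to lose lymphoid output and to favour megakaryocyte and myeloid output.

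There was 1 library per age, so no test between ages was possible. Every interval is an exact binomial 95% interval that covers counting error only, and unique fragments of 1 nucleus are not independent samples of animals. Young HSCs gave 4887 kept barcodes with 50069575 fragments and aged HSCs 3405 kept barcodes with 38663214 fragments. Of the kept barcode sequences, 26 occurred in both libraries. Short fragments, too short to span a nucleosome, were 59.9% of the young and 55.1% of the aged library. The label was checked on levels over 1500 bp at the gene starts of marker lists, in fragments per 1000000 kept fragments. The median was 9.31 in young and 9.48 in aged HSCs at HSC-like markers and 13.1 and 12.5 at megakaryocyte-like markers. At the other 6 lists (erythroid, B, T, mature myeloid, granulocyte-monocyte and lymphoid progenitors) it lay between 1.32 and 2.96 in young and between 0.983 and 2.38 in aged HSCs.

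The DNA of the 3 lost bins with the lowest ratio is given first because these are the sites where aged HSCs had almost no fragments. Each line holds the central 300 bases (mm10, plus strand), and capitals mark matches to the PU.1, RUNX, E2A or MEIS motif.
Ehd1 chr19:6291101-6291400: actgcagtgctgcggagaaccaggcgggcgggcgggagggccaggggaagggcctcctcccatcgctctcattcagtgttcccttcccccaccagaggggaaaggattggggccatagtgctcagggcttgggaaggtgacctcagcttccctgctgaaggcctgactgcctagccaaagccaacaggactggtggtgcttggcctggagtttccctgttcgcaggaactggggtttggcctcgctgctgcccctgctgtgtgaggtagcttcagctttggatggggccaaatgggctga
Emc3 chr6:113517601-113517900: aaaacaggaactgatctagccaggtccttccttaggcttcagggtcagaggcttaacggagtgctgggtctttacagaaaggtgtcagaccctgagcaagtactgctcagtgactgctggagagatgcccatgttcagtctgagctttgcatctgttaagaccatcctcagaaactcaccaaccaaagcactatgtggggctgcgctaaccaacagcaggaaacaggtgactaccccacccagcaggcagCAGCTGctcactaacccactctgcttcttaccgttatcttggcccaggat
Dlgap4 chr2:156749601-156749900: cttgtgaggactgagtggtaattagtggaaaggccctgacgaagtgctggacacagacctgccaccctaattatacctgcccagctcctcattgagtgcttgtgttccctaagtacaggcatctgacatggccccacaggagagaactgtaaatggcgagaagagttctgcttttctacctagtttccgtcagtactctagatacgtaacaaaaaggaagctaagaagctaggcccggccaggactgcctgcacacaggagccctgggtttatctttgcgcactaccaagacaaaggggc
The window in Emc3 held 1 E2A motif, and the other two held none of these motifs. The Emc3 bin also holds a PU.1 motif outside the window. No window overlapped an untranslated region, and the last bases of the Emc3 window reach into a coding exon.

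The PU.1 motif, GAGGAAGT on either strand, was the motif found in lost bins most in excess of all tested bins (below). The 5 lost bins with most fragments that hold it are shown as 41 bases around the motif, in capitals, in the direction of the motif (mm10, coordinates of the plus strand).
Dynlt1b chr17:6430401-6430441: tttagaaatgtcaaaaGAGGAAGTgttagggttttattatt
Cdc42bpg chr19:6306960-6307000: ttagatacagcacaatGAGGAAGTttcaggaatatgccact
near Poll chr19:45544249-45544289: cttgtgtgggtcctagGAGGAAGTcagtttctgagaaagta
Rnf220 chr4:117478215-117478255: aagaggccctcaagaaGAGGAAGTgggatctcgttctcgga
Abr chr11:76588141-76588181: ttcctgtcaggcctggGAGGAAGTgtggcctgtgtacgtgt
The motif lay on the plus strand at Rnf220 and on the minus strand at the other loci. Young and aged HSCs had 974 and 357 fragments in the bin at Dynlt1b, 893 and 359 at Cdc42bpg, 571 and 253 near Poll, 558 and 213 in Rnf220, and 527 and 187 in Abr. The bins at Dynlt1b, Cdc42bpg and Rnf220 lie in stretches in which bins of low level fell too, described further on. Dynlt1b also has near-identical gene copies nearby, and how reads that match several copies were treated is not given in the sources used here.

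The lost bins were chosen by the ratio, so the ratios are given as a description. Young HSCs had 380794 fragments in lost bins and aged HSCs 149130, which is 0.761% of the young and 0.386% of the aged fragments, a ratio of 0.507 (0.504 to 0.510). Over all tested bins the ratio was 0.969. Most lost bins lay close to the limit, and complete loss was rare. A ratio over 0.5 was found in 1846 lost bins, a ratio of 0.3 or less in 75 and a ratio of 0.2 or less in 9, and no lost bin was without aged fragments. The upper end of the interval was at 0.6 or less in 420 of the 2755 lost bins. It was under 1 in all of them, but the minimum count and the ratio limit of the rule fix this. The intervals use the same counts that chose the bins, so they are no separate check of single bins. Just inside the limit lay bins with 135 young and 62 aged fragments on chromosome 4 (ratio 0.5999), with the same counts on chromosome 18, and with 420 and 194 on chromosome 1 (ratio 0.5998). Just outside lay bins with 122 and 56 fragments on chromosome 2, 245 and 113 on chromosome 3, and 122 and 56 on chromosome 9, each with a ratio of 0.6001.

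**Figure D1:**
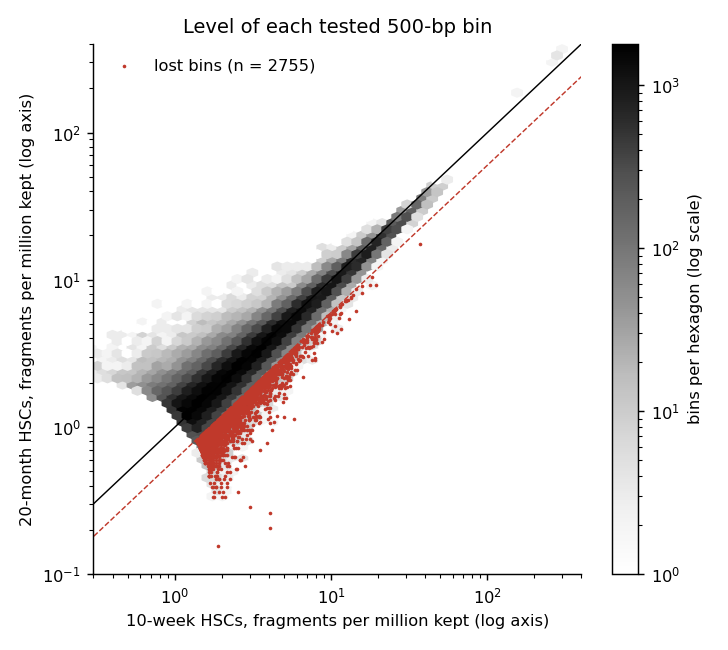
Level of each tested bin in young (x axis) and aged (y axis) HSCs as fragments per 1000000 kept fragments, both on log axes; grey hexagons count bins, red points are the 2755 lost bins, the black line marks equal levels and the dashed line a ratio of 0.6. Lost bins crowd at low levels along the dashed line, and the few points far under it include the bins in Ehd1, Emc3 and Dlgap4.

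Lost bins were mostly bins of modest level. They held a median of 148 fragments, against 236 over all tested bins, and 1399 of them had 100 to 149 fragments. The percentage lost fell from 3.73% (3.54 to 3.93) at 100 to 149 fragments to 0.483% (0.390 to 0.592) at 500 to 999. Among the 11586 bins with 1000 fragments or more, only 7 were lost (0.0604%). A ratio from few fragments scatters more, and the part of scatter in the low tier was not tested.

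Gene starts were rare among lost bins. Within 1 kb of a transcription start site (TSS) lay 7.84% (6.86 to 8.91) of lost bins, 28.3% of all tested bins and 12.4% of gained bins. Bins near a TSS also hold more fragments, so both kinds were set side by side within ranges of total fragments (depth within a range was not matched). At 100 to 149 fragments, 1.61% (1.31 to 1.96) of bins within 1 kb of a TSS and 4.15% (3.93 to 4.37) of those farther away were lost, and at 300 to 499 fragments 0.305% (0.194 to 0.458) and 1.08% (0.931 to 1.24). From 1000 fragments, a range with no upper limit, the percentages were 0.0625% (5 of 7997) and 0.0557% (2 of 3589), with intervals that overlap.

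Introns held the centre of 56.2% (54.3 to 58.1) of lost bins and 49.99% of all tested bins, and intergenic DNA 31.6% and 33.0%. The median distance to a protein-coding TSS was 19583 bp for lost, 12067 bp for all tested and 36610 bp for gained bins. Gained bins thus lay farther out than lost bins. Median GC content was 49.2% (49.0 to 49.4) in lost, 49.8% in all tested and 47.0% in gained bins. The percentage lost was highest at a GC content of 50 to 55% (2.49%, 2.32 to 2.67) and lowest above 65% (0.271%, 0.183 to 0.387). Bins of which more than 50% was soft-masked repeat were lost in 3.50% (3.03 to 4.02) of cases, against 1.85% (1.78 to 1.93) of the other bins. By chromosome, the percentage lost ranged from 1.47% on chromosome 3 to 2.555% on chromosome 17, and no chromosome was without lost bins.

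Barcodes that the rule did not use came from the same libraries, so they check the counting and not the animals. In called cells outside the depth limits there were 5273 young and 19029 aged fragments in lost bins, and their ratio was 0.601 (0.583 to 0.620), where all tested bins had 0.983 and gained bins 1.77. In barcodes not called as cells the ratio was 0.407 (0.398 to 0.417) in lost bins, but all tested bins were also low there, at 0.562. Over both kinds of barcode the ratio was 0.547 (0.537 to 0.557). Relative to all tested bins in the same barcodes, lost bins stood at 0.523 in the kept barcodes, at 0.611 in the other called cells and at 0.724 in uncalled barcodes, so the difference was smaller where the rule had not chosen it. Of the 2345 lost bins with 10 or more such fragments, 2100 had a ratio under 1 (89.6%), against 69.6% of all tested bins with as many, and the median ratio was 0.538 (0.528 to 0.549), against 0.824. These pooled values mix the kinds unequally, with 739390 young and 4440661 aged fragments in called cells and 2977168 and 5229240 in uncalled barcodes. In the called cells outside the limits alone, 766 of 868 lost bins with 10 or more fragments had a ratio under 1. This was 88.2%, against 66.6% of all tested bins with as many. The low share in lost bins was thus also found in nuclei and DNA that did not choose them.

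Most lost bins stood alone. Of the lost bins, 2515 had no adjacent lost bin, 115 runs joined 2 or more, and the longest run was 5 bins. Of the 5240 adjacent bins that were not lost, only 764 held enough fragments to be tested, so for the others the minimum decided this. Bins next to a lost bin that were not lost themselves had 225948 young and 137040 aged fragments, a ratio of 0.785 (0.780 to 0.791). The ratio was 0.888 (0.881 to 0.895) at 1 kb and 0.921 (0.914 to 0.928) at 3 kb. Among the 764 adjacent bins that were tested but not lost, 652 had a ratio under 1 (85.3%, against 53.4% of all tested bins) and 1 reached the limit for gained bins. Neighbours of gained bins were shifted the other way, as the plot of ratio by distance shows.

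**Figure D2:**
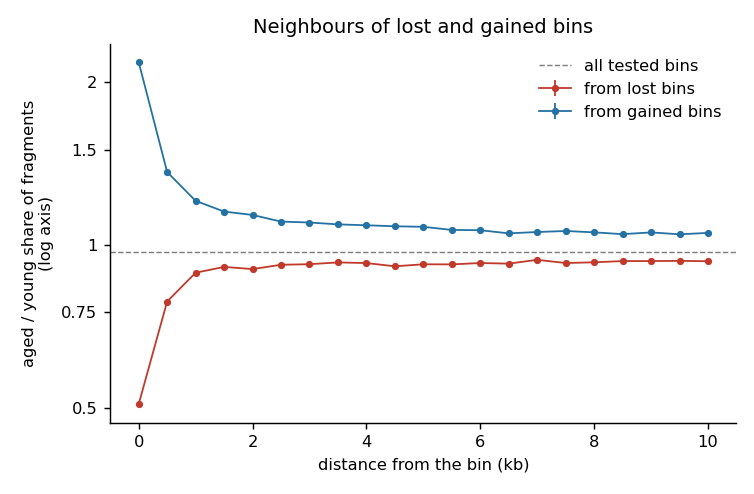
Aged over young share of fragments (log axis) in bins at each distance (kb) from lost bins (red) and gained bins (blue), members of the same kind left out beyond 0 kb; error bars are 95% intervals, mostly smaller than the points, and the dashed line marks all tested bins at 0.969. The ratio at lost bins was 0.507, rose to 0.785 at 0.5 kb and was 0.921 at 3 kb. The line covers tested bins only, and of the 5240 bins adjacent to lost bins 764 were tested. It is thus no matched background for the neighbours.

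Fragments were also split by length, among the same fragments that chose the bins. In lost bins the ratio was 0.463 (0.459 to 0.466) for fragments shorter than nucleosomal DNA, 0.608 (0.6003 to 0.615) for fragments of about 1 nucleosome and 0.706 (0.689 to 0.723) for longer ones. All tested bins showed the same order, at 0.915, 1.06 and 1.19, and the whole aged library also held fewer short fragments. Relative to all tested bins the 3 classes stood at 0.506, 0.571 and 0.591. In gained bins, chosen from the same fragments in the opposite direction, they stood at 2.33, 2.08 and 2.04. Short fragments made up most of the counts behind the rule, so nothing is read from the order of the classes.

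The lost bins were then searched for 28 transcription factor motifs as fixed letters on both strands. PU.1 stood apart. Its motif was present in 455 lost bins, 16.5% (15.1 to 17.96), in 6.87% of all tested bins and in 4.96% of gained bins. Away from TSSs (over 1 kb), 428 of 8212 bins with the motif were lost, 5.21% (4.74 to 5.71), against 2.23% of bins without it. The same bins were gained in 3.45% of cases with the motif and 5.46% without it, the opposite order.

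For PU.1 the percentages were also taken within ranges of depth and of GC content. Among distal bins with fewer than 200 fragments, 8.23% (7.35 to 9.17) with and 3.31% (3.15 to 3.48) without the motif were lost, and with 500 fragments or more 1.19% (0.708 to 1.88) and 0.507% (0.393 to 0.644). Within each of 4 ranges of GC content the percentage was at least 4.10% with the motif and at most 2.73% without it.

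The cuts of the transposase around PU.1 motifs showed where accessibility was lower. In the 428 distal lost bins with the motif, young HSCs had 189 and aged HSCs 94.6 cuts per 1000000 fragments in the 20 bp centred 10 bp before the motif's centre, a ratio of 0.501. The ratio was 0.833 at 490 bp before the centre, where the levels were 18.5 and 15.4, and 0.794 at 490 bp after it. These values rest on the ratio that chose the bins. Over all 8212 distal tested bins with the motif the ratio was 0.920 next to the motif and 1.03 and 1.02 at 490 bp before and after it. The level differed too, at 4697 young cuts next to the motif and 852 at 490 bp before it. Over all tested bins the median ratio fell with level, from 1.05 at 100 to 149 fragments to 0.905 from 1000. Bins without the motif were not profiled, so the lower ratio near the motif is not tied to the motif.

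Motifs of some other factors of HSCs and lymphoid progenitors were also in excess, at smaller differences, and those of several more were not. RUNX motifs (TGTGGTT) were present in 19.2% (17.7 to 20.7) of lost and 13.2% of all tested bins, and the E-box CAGCTG bound by E2A in 32.3% (30.6 to 34.1) and 26.5%. The E-box CAGGTG showed no excess, at 32.6% (30.8 to 34.4) and 33.0%. MYB motifs (GGCNGTT) showed none either, at 17.3% (15.9 to 18.8) and 18.7%. For the HOXA9, PBX-HOX, HLF, TCF and EBF motifs, too, the interval of lost bins included the share of all tested bins. MEIS motifs (GCTGTCA) were present in 11.9% (10.7 to 13.1) and 9.03%, and the ERG form of the ETS site, CAGGAAGT, in 9.80% (8.72 to 11.0) and 6.95%. Lost bins were rarely near a TSS, so the shares were also taken in distal bins only. There the lost and tested shares lay closer for RUNX (19.5% and 15.4%), E2A (31.7% and 27.4%) and ERG (9.89% and 8.04%). For MEIS they were 11.97% and 9.12%. The PU.1 and ERG letters share their ETS core but differ at the start, and 39 lost bins held both. RUNX motifs were also more frequent in gained bins (17.8%). Distal bins with both PU.1 and RUNX were lost in 5.99% (4.76 to 7.43) of cases, with PU.1 only in 5.07% (4.56 to 5.61), with RUNX only in 2.86% (2.59 to 3.14) and with neither in 2.11% (2.01 to 2.22).

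CTCF motifs were scarce, present in 20 lost bins, 0.726% (0.444 to 1.12), against 2.92% of all tested bins, and distal bins with the motif were lost in 0.441% (0.257 to 0.704) of cases, against 2.54% without it. They were also rarely gained, at 0.777% against 5.48%. AP-1 sites (TGANTCA), which stress and growth signals use, were present in 13.6% (12.4 to 14.9) of lost, 14.6% of all tested and 24.1% of gained bins. By this share, the difference between lost and all tested bins was within the interval. Among distal bins, however, those with an AP-1 site were lost less often, in 2.02% (1.82 to 2.24) of cases against 2.555% without it. Distal bins with the FOX motif TGTTTAC were lost in 1.78% (1.48 to 2.12) of cases, against 2.52% without it, and those with the GCTGAGTCA site of the CNC family in 1.37% (0.918 to 1.96) against 2.49%. With and without GATA motifs (AGATAAG) the percentages were 2.51% (2.17 to 2.89) and 2.46%, a difference within the interval. For CEBP motifs (TTGCNNAA) they were 2.27% (2.07 to 2.48) and 2.51%, a value just above the interval. By share of bins, the measure given for RUNX, GATA motifs were in 7.51% (6.56 to 8.56) of lost and 6.36% of all tested bins. Percentages within ranges of depth were taken for PU.1 only. The part of depth in the differences at other motifs was not tested. A motif match is a run of letters and not a bound site.

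**Figure D3:**
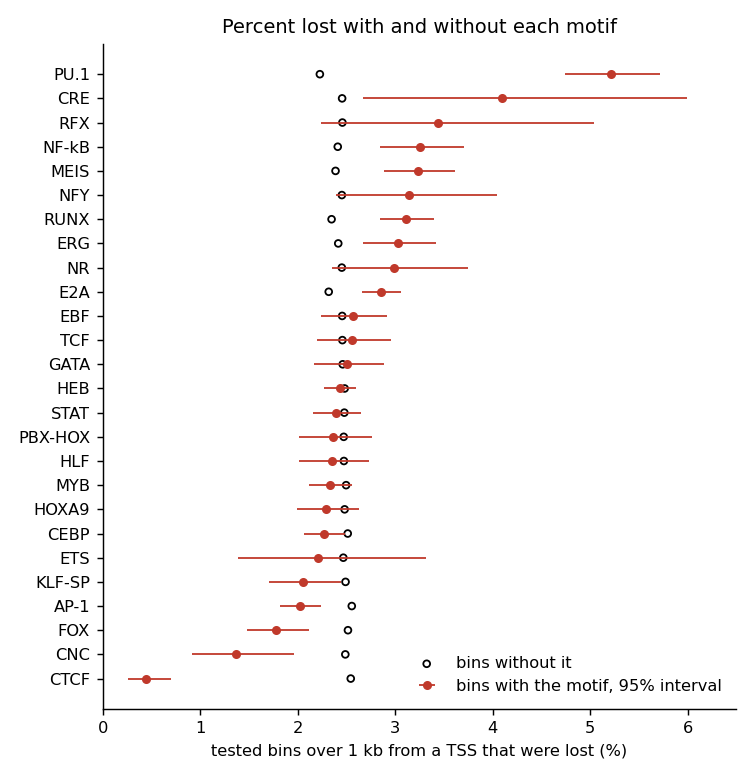
Percentage of tested bins over 1 kb from a TSS that were lost, with (red, 95% interval) and without (open circles) each motif; motifs in fewer than 500 such bins are not drawn. PU.1 stands highest at 5.21% and CTCF lowest at 0.441%, where bins without the motif lie between 2.23% and 2.555%.

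Among single loci, the lowest ratio was found in an intron of Ehd1, which encodes an ATPase of endocytic recycling. The bin chr19:6291001-6291500 had 204 young and 8 aged fragments, from 198 and 8 nuclei, a ratio of 0.0569 (0.0216 to 0.102). An intronic bin of Emc3, which encodes a subunit of a complex that inserts proteins into the endoplasmic reticulum membrane, had 203 and 10 fragments at chr6:113517501-113518000 (ratio 0.0698, 0.0301 to 0.120). In Dlgap4, a scaffold gene of synapses, the bin chr2:156749501-156750000 had 94 and 6 fragments (0.0954, 0.0296 to 0.187). They came from 189 and 10 nuclei at Emc3 and from 90 and 6 at Dlgap4, with at most 3 fragments of 1 nucleus, so single nuclei did not carry these counts.

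Further bins among the 10 lowest had ratios of 0.153 to 0.201. They lay in a coding exon of Chd7, a chromatin remodeller (126 young and 14 aged fragments), and in an untranslated region of Wdtc1 (104 and 13). Others lay in a noncoding exon of Fbrsl1 (100 and 13), in the T cell receptor alpha segment Trav13d-4 (102 and 14), in an intron of the calcium channel gene Itpr3 (107 and 15) and 53460 bp from the start of Fbxo11, a subunit of a ubiquitin ligase (141 and 21). The bins at Trav13d-4 and near Fbxo11 lie in 20-kb windows in which bins of low level fell too, and Trav segments have near-identical copies.

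Of the 10 lost bins with most fragments, 5 lay within 500 bp of a gene start. The bin at the start of Men1, which encodes menin, a scaffold of MLL histone methyltransferase complexes, had 1862 young and 672 aged fragments at chr19:6334501-6335000 (ratio 0.468, 0.427 to 0.511), from 1506 and 598 nuclei. Dynlt1b, a dynein light chain gene, followed with 974 and 357 (0.476, 0.419 to 0.536), and both bins at the start of Cdc42bpg, a kinase acting under the GTPase Cdc42, with 909 and 405 (0.578) and 893 and 359 (0.521). Next stood Mex3b, an RNA-binding protein gene (787 and 348), a bin 2208 bp from the start of the anthrax toxin receptor gene Antxr2 (784 and 316), in a 20-kb window in which bins of low level fell too, and an intron of Atxn7l1 (725 and 333). The last of the 10 were in Rhof (695 and 304), Cables1 (674 and 297) and Pik3ap1, an adaptor of PI3-kinase signalling in B cells and macrophages (669 and 291).

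Few lost bins were at promoters, with 80 within 500 bp of a protein-coding TSS (2.90% of lost bins, against 15.7% of tested bins). Of the 8 with most fragments, 5 are given above (Men1, Dynlt1b, Cdc42bpg in 2 bins and Mex3b). The others were Arhgap30, a gene of a GTPase-activating protein, with 652 young and 209 aged fragments (ratio 0.416, 0.354 to 0.486), the peroxisome gene Pex6 with 534 and 246 (0.598, 0.511 to 0.695), and Marcksl1 with 530 and 242 (0.593, 0.506 to 0.690). The adjacent bin in Arhgap30 was lost as well, with 195 and 55 fragments.

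Several of these strong cases share 1 stretch of chromosome 19. From within Ehd1 over Cdc42bpg to the start of Men1, 18 of 20 tested bins were lost, the first at chr19:6291001-6291500 and the last at chr19:6334501-6335000. This stretch of 48 kb, chosen after its values were seen, had 9573 young and 3594 aged fragments, a ratio of 0.486 (0.468 to 0.505). Its bins with under 100 fragments (shallow bins), which the rule did not use, had 1193 and 451 fragments, a ratio of 0.490 (0.438 to 0.546). The 48 kb before it had a ratio of 0.917 (0.882 to 0.953) with 0 of 13 tested bins lost, and the 48 kb after it 0.891 (0.866 to 0.917) with 1 of 27. Tested and shallow bins of the stretch thus had a like ratio, below that on either side, and whether the DNA itself differed in copy number was not tested. At least 1 fragment from the stretch was found in 4029 of 4887 young nuclei (82.4%) and in 2106 of 3405 aged nuclei (61.9%), with means of 1.96 and 1.06 and a variance over the mean of 1.27 and 1.20. Aged nuclei were the deeper ones, with a median of 10788 autosomal fragments against 9680.

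**Figure D4:**
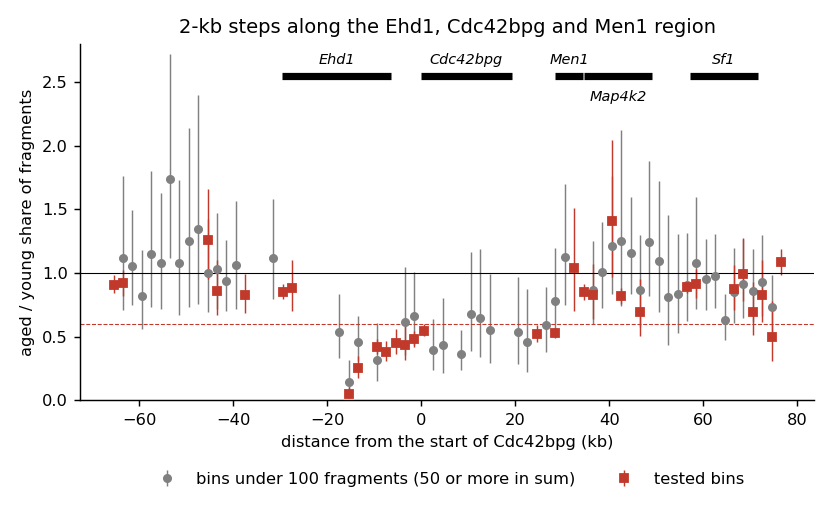
Aged over young share of fragments in steps of 2 kb along chromosome 19, by distance (kb) from the start of Cdc42bpg; red squares are tested bins, grey points are bins under 100 fragments in steps that hold 50 or more such fragments, error bars are 95% intervals and black bars are genes. Over the stretch from Ehd1 to the start of Men1 the ratio was 0.486 for tested bins and 0.490 for shallow ones, with the lowest tested bin at 0.0569, and single steps on either side vary around 0.917 and 0.891.

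Shallow bins were also low in other stretches, likewise chosen after their values were seen. At T cell receptor alpha variable segments on chromosome 14, 11 of 11 tested bins were lost, with ratios from 0.189 to 0.557, and the shallow bins had 1268 young and 372 aged fragments, a ratio of 0.380 (0.338 to 0.427). In 70 kb around Dynlt1b, 6 of 6 tested bins were lost and the shallow bins had 579 and 230 fragments, a ratio of 0.514 (0.440 to 0.6004). In 100 kb of Rnf220, a ubiquitin ligase gene, 8 of 29 tested bins were lost and the shallow bins had 2153 and 940 fragments, a ratio of 0.565 (0.523 to 0.611). There the tested bins as a whole were less low, at 0.728 (0.699 to 0.757).

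Such windows were rare in the genome. Of 75789 windows of 20 kb with 100 or more shallow fragments, 288 (0.380%) had a shallow ratio of 0.6 or less, where the median window had 1.03. They held 78 lost bins, 2.83%, and 0.133% of all tested bins. The 2455 such windows with a lost bin had a median shallow ratio of 0.918. Without the 288 windows, an alternative chosen after seeing the data, 2677 lost bins remained, the excess of PU.1 motifs was 9.84 percentage points in place of 9.65, and the ratio in adjacent bins was 0.789 in place of 0.785.

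By gene, lost bins were scattered. Of 16643 protein-coding loci (gene body with 10 kb upstream) with a tested bin, 1854 held at least 1 and 80 held 3 or more. Cdc42bpg had 13 of 13 tested bins lost, all in the stretch above, and 5 of these lie over the end of Ehd1. Sik1, a salt-inducible kinase gene that restrains CREB-dependent transcription, had 10 of 26. The lost bins of Sik1 lay over the gene body and past its end and not at its start, and 15 of 33 tested bins were lost in 20 kb around it, from chr17:31841501-31842000 to chr17:31851001-31851500. Its lowest bin, past the end of the gene, had 150 young and 48 aged fragments (ratio 0.420, 0.293 to 0.577). The shallow bins there had 226 and 140 fragments, a ratio of 0.802 (0.645 to 0.995), whose interval includes that of the tested bins (0.769).

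Rnf220 had 9 of 41 tested bins lost, of which the deepest, chr4:117478001-117478500, holds the PU.1 motif shown above, with 558 and 213 fragments (0.496, 0.420 to 0.580). A bin at its start had 435 and 146 fragments (0.437, 0.358 to 0.525). Snx29, a sorting nexin gene, had 8 of 56 over its long introns, with ratios from 0.347 to 0.581. The largest count, 21 of 914, was at Gm20388, a readthrough locus over many genes, and at 2.30% it was near the background of 1.92%. None of the 5 loci except Gm20388 held a gained bin.

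Gene lists were described by the percentage of lost bins at their loci, beside 1.88% (1.80 to 1.96) over all protein-coding loci. The interval lay above this value for surface proteins of multipotent progenitors, lymphoid-progenitor-like markers, cytokine receptors and the TGF-beta pathway, and below it for hematopoietic transcription factors. It included the value for the other 11 lists. The lists above the value share bins, so they are not separate findings. The Flt3 bins count for surface proteins, lymphoid-progenitor-like markers and cytokine receptors, and the Kit bin for surface proteins and receptors. The bins of Tgfbr2 and Tgfbr3 count for receptors and the TGF-beta pathway. The intervals were not adjusted for the number of lists. At loci of 7 surface proteins that mark multipotent progenitors, 5 of 59 tested bins were lost, 8.47% (2.81 to 18.7). They were 2 bins of Flt3, the receptor of lymphoid-primed progenitors, and 1 each of Cd34, Cd48 and Kit, the receptor of stem cell factor. The deeper Flt3 bin, chr5:147341001-147341500, had 308 young and 131 aged fragments (0.553, 0.445 to 0.678), and the bin 242 bp from the start of Cd48 had 92 and 41 (0.585, 0.389 to 0.843). Cd34 had 139 and 62 fragments in an intron and Kit 78 and 35. The sort gated on CD34, CD48, Flt3 and c-kit in both ages.

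Receptors for cytokines and growth factors had 14 of 253 tested bins lost, 5.53% (3.06 to 9.11), at 10 of 24 loci. Among bins with fewer than 200 fragments the percentage was 8.65%, against 3.32% over all protein-coding loci. The deepest, 5532 bp from the start of the interferon receptor gene Ifnar2 at chr16:91367001-91367500, had 633 young and 281 aged fragments (0.576, 0.498 to 0.663). The bin at the start of Csf2rb, the common beta chain of the IL-3, IL-5 and GM-CSF receptors, had 487 and 223 (0.594, 0.504 to 0.696) and holds a PU.1 motif. Il6ra, the IL-6 receptor gene, had 237 and 104 fragments 1945 bp from its start, also with a PU.1 motif, and Il1r1, the IL-1 receptor gene, 180 and 78. Ifngr2, Tgfbr2, Tgfbr3, Csf1r, Kit and Flt3 had lost bins too.

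In the TGF-beta pathway, which keeps HSCs quiescent, 13 of 324 tested bins were lost, 4.01% (2.15 to 6.76), at 9 of 17 loci. Several of these loci encode inhibitors of the pathway. Smad6, an inhibitory Smad gene, had 3 lost bins, of which adjacent ones had 217 young and 98 aged fragments (0.588) and 142 and 50 (0.462, with a PU.1 motif). Smad7, the other inhibitory Smad gene, had 2 with ratios of 0.432 and 0.593, and the repressor gene Ski had 1 with 83 and 34 fragments. Smad3, which carries the signal, had 136 and 56 fragments in an intron, the receptor gene Acvrl1 133 and 60, and Ltbp3, whose product holds the ligand in the matrix, 130 and 45 (0.455, 0.312 to 0.634). All but 1 of the 13 bins had fewer than 200 fragments, and with a minimum of 200 the percentage at these loci was 0.529%, below the 0.946% of all bins tested at that minimum, so the excess at these loci was not found there.

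Loci of lymphoid progenitors had 5 of 73 tested bins lost, 6.85% (2.26 to 15.3), at 3 of 9 loci. Notch1, the receptor that directs progenitors to the T lineage, had an intronic bin with 490 young and 214 aged fragments 2912 bp from its start (0.567, 0.479 to 0.665) and one with 292 and 121 and a PU.1 motif (0.539, 0.431 to 0.666). Satb1, a chromatin organiser of lymphoid cells, had 80 and 32 fragments in its lost bin (0.528, 0.333 to 0.790), and the 2 bins of Flt3 are the ones above. Outside lost bins these loci had 20466 young and 14194 aged fragments, a ratio of 0.898 (0.879 to 0.918). The ratio was under 1 at 6 of the 9 loci. The next lowest list by this ratio was that of chromatin regulators, at 0.933.

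Loci of HSC-like markers had 3 of 357 tested bins lost, 0.840% (0.174 to 2.44), an interval that includes the 1.88% of all protein-coding loci. There was 1 each in Mecom (150 young and 60 aged fragments), Hlf (94 and 43) and Erg (75 and 30). Outside lost bins, the fragments of the HSC-like loci had a ratio of 1.02 (1.01 to 1.03). Of 1108 tested bins at 41 hematopoietic transcription factor loci 11 were lost, 0.993% (0.497 to 1.77). The deepest, 12265 bp from the start of Lmo2, an adaptor of HSC transcription factor complexes, had 327 and 135 fragments (0.537, 0.434 to 0.655), and an intron of Myb held adjacent lost bins with 117 and 38 and with 71 and 32 fragments. Bach2 had 169 and 77 and Mef2c 111 and 46.

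Megakaryocyte-like markers had 1 of 85 bins lost, at F2rl2 (280 and 128), and granulocyte-monocyte-progenitor-like markers 3 of 51, at Csf1r in 2 bins and at Mpo. None of 28 erythroid-like, 80 T-like and 26 mature-myeloid-like bins was lost, with upper ends of the interval at 12.3%, 4.51% and 13.2%. Adhesion and homing loci had 4 of 202 bins lost, 2 of them at Cd44, cell cycle loci 4 of 208, at Mki67 (94 and 26), Ccnd3, Cdk6 and Cdkn1b, and chromatin regulators 3 of 299, at Dnmt3b (84 and 24), Tet3 and Satb1. At antigen presentation loci 1 of 123 was lost, which the overlapping loci of Psmb8, Psmb9, Tap1 and Tap2 share. At these counts, a percentage equal to that of all protein-coding loci was within each interval.

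**Figure D5:**
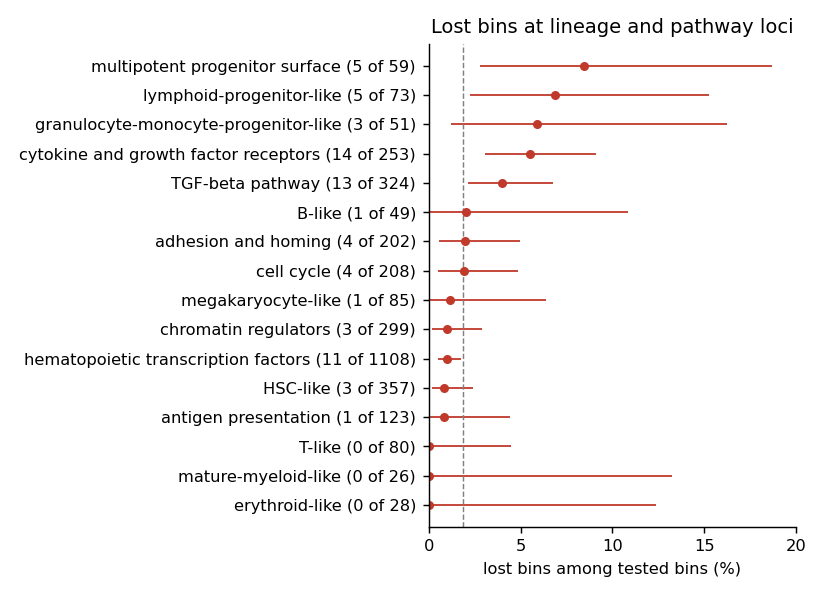
Percentage of tested bins that were lost at the loci of each list (gene body with 10 kb upstream), with 95% intervals and, in parentheses, lost and tested bins; the dashed line marks all protein-coding loci at 1.88%. Surface proteins of multipotent progenitors stand highest at 8.47%, and the intervals of transcription factors (0.497 to 1.77) and cytokine receptors (3.06 to 9.11) do not overlap.

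Single nuclei were compared at 3500 fragments each, which left out 3 young and 2 aged nuclei. Young nuclei had a median of 26 fragments in lost bins (quartiles 21 and 33) and aged nuclei 13 (10 and 17). Under the young median lay 3286 of 3403 aged nuclei, 96.6%, and 46.0% of the young ones. The bins were chosen on the sum over these same nuclei, so these shares are a description. The variance over the mean was 2.74 in young and 2.33 in aged nuclei, and 1 aged nucleus had no fragment in lost bins. At equal ranges of depth, the ratio was 0.517, 0.497 and 0.505 from the shallowest to the deepest nuclei.

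Across nuclei, the count in lost bins had little relation to other loci. Over the 4884 young nuclei, Pearson's r was 0.088 with fragments at lymphoid-progenitor-like loci and -0.105 with those at HSC-like loci, and over the 3403 aged nuclei 0.045 and -0.045, lost and gained bins left out of the loci. Over the 16 lists r lay between these values in young nuclei, and in aged nuclei it was highest with granulocyte-monocyte-progenitor-like loci, at 0.074. Nuclei of 1 library share their preparation, and at a mean of 1.46 fragments per young nucleus at lymphoid-progenitor-like loci such values are no finding.

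The lost bins were finally set against regions and genes that differed in bulk assays of separately sorted HSCs, of which only position and direction were used. Of 100 autosomal regions that were closed in aged HSCs in bulk ATAC-seq, 21 held a lost bin (interval 13.5 to 30.3%), and of 426 that were opened none did, which allows up to 0.862%. Lost bins in the closed regions numbered 26, 0.944% of lost bins, and they made up 14.1% (9.44 to 20.0) of the 184 tested bins there, against 1.92% of all. They included 3 bins of Pik3ap1 (193 young and 30 aged fragments in the lowest), 3 of Adgra2, an adhesion G protein-coupled receptor gene (543 and 168 in the deepest), 2 near Fscn1, the actin bundling gene fascin (223 and 94 and 183 and 82), and 1 each of Rrp1 (210 and 37), Gpr132 (262 and 91) and B4galt5 (150 and 37).

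At genes with lower transcripts in aged HSCs in bulk RNA-seq, 46 of 1405 tested bins were lost, 3.27% (2.41 to 4.34), and at genes with higher transcripts 21 of 2640, 0.795% (0.493 to 1.21), beside 1.88% over all protein-coding loci. By the nearest protein-coding TSS the percentages were 3.47% (2.67 to 4.42) and 0.963% (0.664 to 1.35), beside 1.92% of all tested bins. Of the 115 autosomal protein-coding genes with lower transcripts 38 (33.0%) were nearest to a lost bin, and of the 267 with higher transcripts 26 (9.74%), beside 2120 of all 20780 autosomal protein-coding genes (10.2%). Among genes nearest to a tested bin the shares were 33.0% of 115, 10.0% of 259 and 12.4% of 17084. The number of tested bins per gene was not matched in these shares. The bins with most fragments belonged to Antxr2 and Arhgap30 (above), Rassf4 (579 and 180, ratio 0.404), the guanine exchange factor gene Rin3 (403 and 172), the vascular growth factor gene Vegfa (402 and 151) and Kcnk12 (388 and 145). The bins near Antxr2 and Kcnk12 lie in 20-kb windows in which shallow bins fell too, with shallow ratios of 0.597 and 0.556. The costimulatory gene Cd86 had 312 and 135 fragments 170 bp from its start. Whether any of the same mice served the bulk and the single-cell assays is not stated in the sources used here.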

How the data were processed

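Single-cell ATAC-seq was measured in 1 library of young and 1 of aged HSCs, grouped by the age in the labels. Cell Ranger ATAC was used by the authors for alignment to mm10, removal of duplicates and the calling of cells in each library. The deposited files hold counts with no normalization: unique fragments with their barcode, and fragments per barcode. Barcodes called as cells with 3000 to 20000 in-peak fragments were kept; doublets were not removed. Fragments were counted by midpoint in bins of 500 bp and scaled to all kept fragments (depths stand with the results). Sequence was that of GRCm38 (the build of mm10) and genes were those of GENCODE M21. NumPy 2.4.6, SciPy 1.17.1 and pandas 2.3.3 were used, and the calls were tested on simulated data. The members, motifs and gene lists were chosen with earlier results of these data known. Bins were named by rule: the 10 with the lowest ratio, the 10 with most fragments, the 8 deepest at promoters, the 5 loci with most lost bins and the 3 deepest per list; other bins named were chosen after their values were seen. Some results under this rule are not reported here. Of the authors' bulk comparisons only positions (autosomes) and directions were used, and not their fold changes or p-values. Alternatives changed bin offset, minimum, counting, fragment length, scaling, thinning, pseudocount, limits and windows.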

Additional observations from a re-analysis of the deposited data

How the results depend on the processing

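No paired analysis was possible because there was 1 library per age. Of 76 alternatives, 49 stayed within the interval of the reported value (counts within 1.5 times of it), 27 moved and none reversed. Only differences from all tested bins and ratios of fragments could reverse, because a count or a percentage cannot change sign. The TGF-beta loci, which passed from above to below all tested bins at a minimum of 200, were thus counted as moved. The number of lost bins, 2755 as reported, was 8332 with a minimum of 50 fragments, 791 with 200, 5692 with nuclei thinned to 3500 fragments and the minimum lowered by the share of fragments left (1706 shared with the reported set), 909 at a ratio of 0.5 or less and 420 by the upper end of the interval. The share within 1 kb of a TSS minus that of all tested bins, -20.5 percentage points, was -14.3 with a minimum of 50, -27.3 with 200, -15.5 with thinned nuclei, -19.4 for protein-coding TSSs and -13.8 within 500 bp. The difference for the PU.1 motif, 9.65 points, was 7.20 with a minimum of 50, 5.61 with thinned nuclei and 4.27 in the central 200 bp. The difference in median GC content, -0.60 points, was -0.20 with a minimum of 50, -1.4 with 200, -1.2 with short fragments only and -1.2 with thinned nuclei. In barcodes the rule did not use, the ratio was 0.601 in called cells only and 0.407 in uncalled barcodes only, against 0.547. Next to lost bins it was 0.903 at 1 to 2 kb and 0.810 in adjacent tested bins, against 0.785. Closed bulk regions with a lost bin were 46 of 100 with bins at 0.7 or less, against 21. Aged nuclei under the young median were 98.4% without thinning and 98.0% at 7000 fragments, against 96.6%. At TGF-beta loci 0.529% of bins were lost with a minimum of 200, against 4.01%, which put them below all tested bins, and at transcription factor loci 2.81% with 50 and 0.346% with 200, against 0.993%. Of all tested bins 3.57% were lost with a minimum of 50 and 0.946% with 200. With 50, surface proteins of multipotent progenitors stood at 5.17%, lymphoid-progenitor-like markers at 6.84%, cytokine receptors at 5.75% and TGF-beta loci at 4.66%. With 200, surface proteins stood at 6.25%, lymphoid-progenitor-like markers at 6% and cytokine receptors at 3.36%. The other minimums for gene lists, the gene body alone and the removal of windows whose shallow bins fell were chosen after seeing the data. Depth limits the set itself: 1399 of 2755 lost bins hold under 150 fragments, and counting error is the only error that 1 library per age can show.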

Other observations

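Some loci with many lost bins fall outside the naming rule and were chosen after their values were seen. Adgra2 had 7 of 16 tested bins lost, the deepest with 543 young and 168 aged fragments (ratio 0.402, 0.335 to 0.477), and Foxn3, a forkhead repressor gene, had 7 of 61. Igf2bp3, an RNA-binding protein gene known for the fetal program of HSCs, had 5 of 14, of which an intronic bin had 243 and 111 fragments. Nfkb1, which encodes the p50 subunit of NF-kB, had 5 of 32, all in introns, with 173 and 67 fragments in the deepest. Plekha2 had 5 of 25 and Pan3, a gene of mRNA deadenylation, 5 of 20. Near Sox4, a transcription factor gene of lymphoid progenitors, 3 lost bins lay 22962 to 336962 bp from its start, and the farthest had 123 young and 20 aged fragments (0.219, 0.124 to 0.340).

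Hes1, a target of Notch signalling, had a lost bin 40633 bp from its start with 119 and 36 fragments (0.399, 0.262 to 0.573). Kcnk12 lay in 1 of the windows whose shallow bins also fell, with 283 young and 121 aged shallow fragments. Distal bins with an NF-kB motif were lost in 3.25% (2.84 to 3.71) of cases, against 2.41% without it.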
